A study of Homo sapiens with 4 samples.

Results

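The comparison described here is that of Siglec-14/THP-1 cells with and without nontypeable Haemophilus influenzae (NTHi), measured on 1 array per condition. THP-1 is an established human monoblastoid leukemia line, and the sublines of the study express either Siglec-14 or Siglec-5. They stand for monocytes of people with intact SIGLEC14 genes and of people who lack SIGLEC14, and each condition is 1 culture of 1 subline. Siglec-14,NTHi[+] cells were incubated for 6 h with heat-killed NTHi strain 2019 at 100 bacteria per cell, and Siglec-14,NTHi[-] cells were kept for 6 h without bacteria. The Siglec-5/THP-1 subline was treated in the same way and is shown beside the Siglec-14 values. All 4 samples were kept in the same serum-free macrophage medium, and 250 ng of total RNA of each was labeled for an Affymetrix U133 Plus 2.0 expression array. The gene sets of this report hold 8074 of the 19775 genes with a probe set annotated to them alone. Each gene is represented by its probe set with the highest mean signal over the 4 arrays, and a gene was kept when the higher of its Siglec-14/THP-1 signals reached the 75th percentile of all signals, 105. Of these, 7682 reached it in both conditions, 267 only in Siglec-14,NTHi[+] and 125 only in Siglec-14,NTHi[-]. The choice used the signals and not the ratio, but a dim gene could enter only through the condition in which it was brighter. Within 10% above the floor lay 246 genes with a median log2 ratio of 0.07 and folds of 0.639 to 2.44, and within 10% below it 207 genes with a median of 0.07 and folds of 0.500 to 2.41.

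Siglec-14 is a sialic acid-binding receptor of myeloid cells that pairs with the adaptor DAP12, which carries an activating motif. Siglec-5 has a nearly identical ligand-binding end but signals through inhibitory motifs. Lipopeptides and lipooligosaccharide of Haemophilus are read by Toll-like receptors, whose adaptor MyD88 leads to NF-κB and the AP-1 factors. NF-κB then switches on cytokines, chemokines and adhesion molecules together with its own inhibitors, which limit the response.

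There are no replicates, so neither an error nor a test can be given for a single gene, and all ratios below are descriptions of a pair of arrays from bulk RNA. In such RNA, fewer cells with a transcript and less transcript per cell cannot be told apart. The sum of all signals was 1.10-fold apart between the Siglec-14/THP-1 arrays (12735500 and 13977411), and the median log2 ratio over the 8074 genes was 0.10, a fold of 1.07. Unless a scaling is named, folds and counts are given with no correction for that shift, and a gene is to be read beside it. The 5th and 95th percentiles of the folds were 0.859 and 1.35, and the ratios of dim genes spread more than those of bright ones. With a geometric mean signal between 100 and 200, the SD of the log2 ratio was 0.28 over 1829 genes, and between 800 and 1600 it was 0.15 over 1175 genes, with 0.18 over 635 genes between 1600 and 3200. The genes above 3200 had a median log2 ratio of 0.18 against 0.07 between 100 and 200, so that bright genes lay slightly higher as a class. The labelled cell type was checked on 12 monocytic markers, of which 10 had a probe set used here and 4 reached the 75th percentile. LYZ, the lysozyme of monocytes and granulocytes, had signals of 3172 and 3036 without and with NTHi, MPO, the myeloperoxidase of immature myeloid cells, 1152 and 1365, and TYROBP, which encodes DAP12, 329 and 376. ITGAM, an integrin chain of myeloid cells, had 290 and 353. CD14, the lipopolysaccharide coreceptor of mature monocytes, had 11.4 and 2.04, under the median of all signals, 16.02, as did FCGR1A, a high-affinity IgG receptor, at 5.58 and 3.37. CD4, CD36, SPI1 and CSF1R lay between 21.2 and 75.05 on both arrays, above that median and under the 75th percentile. None of 5 T cell markers reached the 75th percentile. COL1A1, a fibroblast collagen, did so at 266 and 257, and KRT8, an epithelial keratin, at 110 and 113. No probe set annotated to SIGLEC14 alone was used here, so the receptor that names the subline was not checked. The probe set of SIGLEC5 had 21.3 and 19.5 on the Siglec-14/THP-1 arrays, and 4.13 and 21.6 on those of Siglec-5/THP-1, all under the floor.

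With NTHi, a small set of genes had a higher signal, among them chemokines, cytokines, adhesion molecules and inhibitors of NF-κB. Of the 8074 genes, 15 were at least 3-fold higher in Siglec-14,NTHi[+] (0.186%) and 0 were at least 3-fold lower (0%). At least 2-fold, 54 were higher (0.669%) and 1 was lower (0.0124%). At least 1.5-fold, 202 were higher (2.5%) and 27 lower (0.334%), and 97.2% of the genes lay within 1.5-fold. With each array scaled to the same sum of signals, the 1.5-fold counts were 118 higher and 80 lower, so the share of higher genes among them went from 88.2% to 59.6%. It was 72.1% with the trimmed mean and 73.4% after quantile normalization. The 3-fold and 2-fold counts with the same sum were 12 and 37, all of them among the 15 and the 54. Of the 15 genes, 7 had a resting signal under the 75th percentile and had entered through Siglec-14,NTHi[+] alone, as had 19 of the 54.

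**Figure D1:**
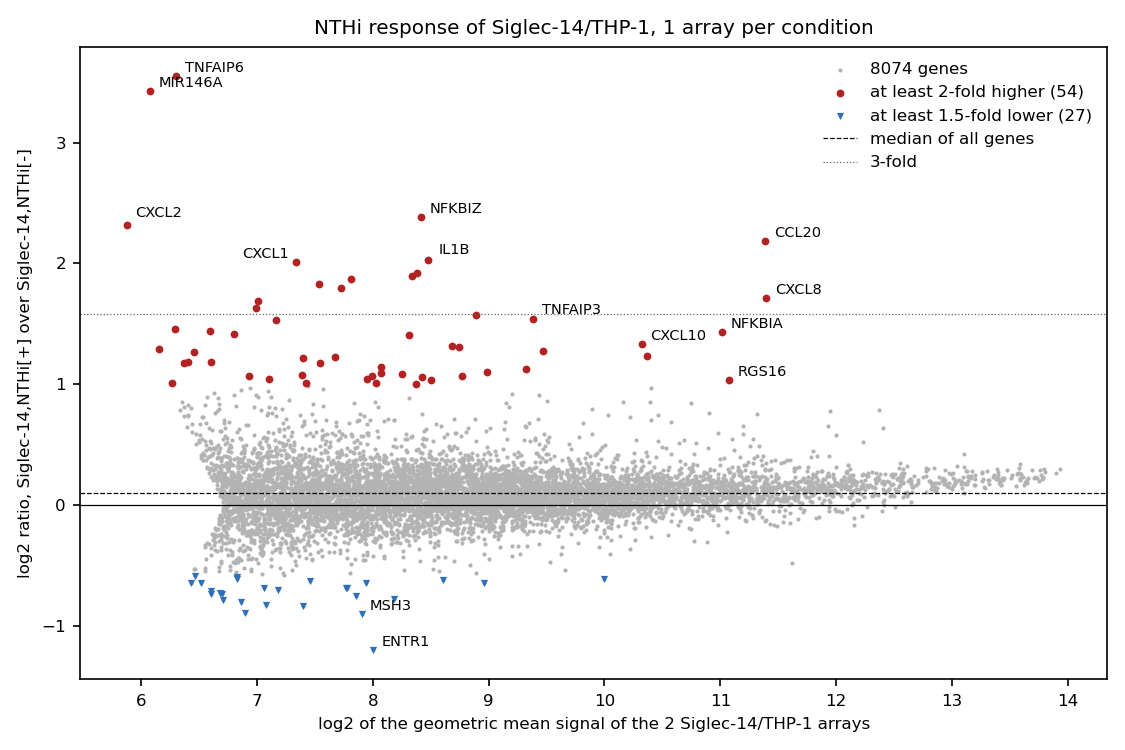
Each point is 1 of 8074 genes, with the log2 of its geometric mean signal on the Siglec-14/THP-1 arrays on the x axis. The y axis is the log2 ratio of the signal with NTHi to that without, with 54 genes in red that were at least 2-fold higher and 27 genes in blue that were at least 1.5-fold lower. The cloud is wider for dim than for bright genes around a median of 0.10, and the genes far from it lie above it.

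TNFAIP6, the hyaluronan-binding protein TSG-6 of inflamed tissue, had the largest ratio, with a signal of 23.1 in Siglec-14,NTHi[-] and 271 in Siglec-14,NTHi[+], 11.7-fold. A second, dimmer probe set gave 7.62-fold, with 28.9 and 220. Both resting signals lay just above the median of all signals, so the resting level was near the lower end of what the array reads. MIR146A, the gene of a microRNA that lowers the Toll-like receptor adaptors IRAK1 and TRAF6, came next, with 20.6 and 222, 10.7-fold. The probe set reads RNA assigned to the gene and not the processed microRNA, whose level was not measured. Its mature strands, by RefSeq on GRCh38.p14 and chromosome 5, are shown because the gene stands so far from the rest, with the seed (bases 2 to 8) in capitals.
hsa-miR-146a-5p (chr5:160485372-160485393, plus strand): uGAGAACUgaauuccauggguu
hsa-miR-146a-3p (chr5:160485408-160485429, plus strand): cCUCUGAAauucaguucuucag

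Below this pair, the order was set by an IκB protein, chemokines and cytokines. NFKBIZ, a nuclear IκB protein that helps switch on secondary NF-κB targets, had 150 and 784, 5.23-fold, and a second probe set had 72.4 and 308, 4.26-fold. CXCL2, a neutrophil chemokine, had 26.4 and 131, 4.98-fold, on a probe set whose name marks possible matches to other transcripts. CCL20, the ligand of CCR6, had 1257 and 5720, 4.55-fold. CXCL2 was the only one of these 3 with a resting signal under the floor.

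IL1B, which encodes interleukin-1β, had 177 and 720, 4.07-fold, and 3.11-fold on another probe set. CXCL1, a further neutrophil chemokine, had 80.8 and 325, 4.03-fold. EBI3, the β subunit of IL-27 and IL-35, had 171 and 650, 3.80-fold. ICAM1, the ligand of leukocyte β2 integrins, was 3.72-fold higher (168 and 625), and its other probe sets at the floor gave 3.51-fold and 2.02-fold. CCL2, which draws monocytes, was 3.65-fold higher (118 and 429), TNFRSF9, the costimulatory receptor CD137, 3.55-fold (98.4 and 349), and IL23A, the p19 subunit of IL-23, 3.46-fold (114 and 395). A probe set of TNFRSF9 under the floor, with 50.3 and 66.7, gave 1.33-fold. Another had 13.2 and 22.2, the resting signal being under the median of all signals. CXCL8, the neutrophil chemokine IL-8, was 3.27-fold higher (1491 and 4883) and 3.52-fold on its other probe set. SLC34A3, a renal sodium-phosphate cotransporter, at 71.8 and 232, and TRIM36, a ubiquitin ligase, at 72.5 and 225, completed the set with 3.23-fold and 3.10-fold.

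**Figure D2:**
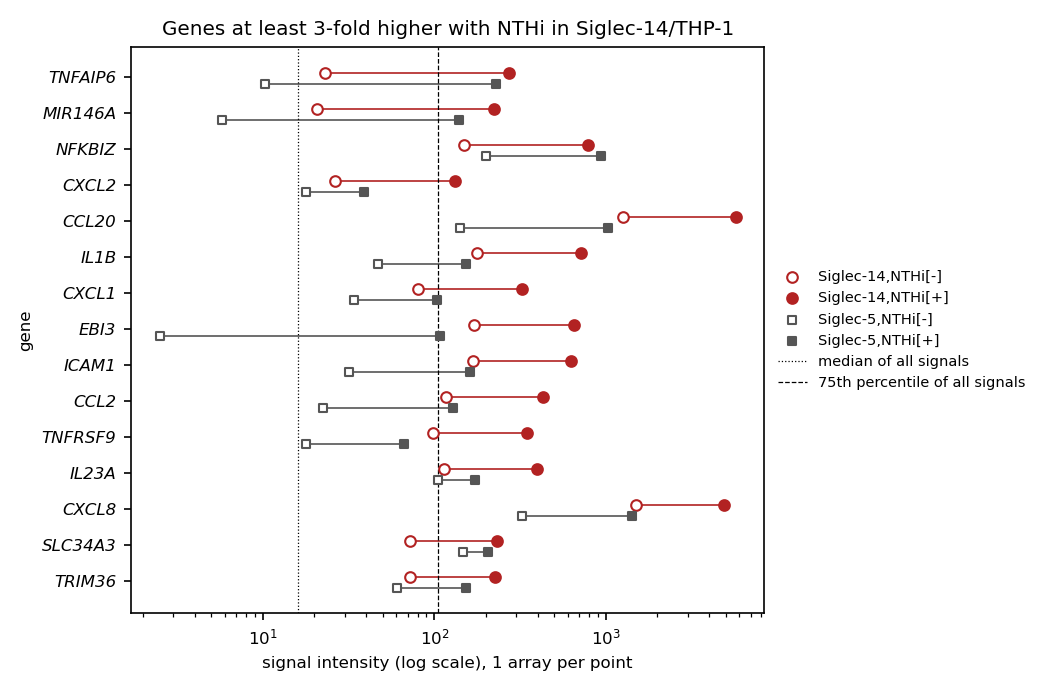
Signals (log scale) of the 15 genes whose signal in Siglec-14/THP-1 was at least 3-fold higher with NTHi, 1 point per array, with open symbols without and filled symbols with NTHi, circles for Siglec-14/THP-1 and squares for Siglec-5/THP-1. The resting signals run from 20.6 for MIR146A to 1491 for CXCL8, and the dotted and dashed lines mark the median and the 75th percentile of all signals.

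The promoters of the 15 genes were searched for letters that the ratio did not use. A window of 250 bases before to 50 bases after the annotated gene start was taken from RefSeq (GRCh38.p14) and matched by symbol for 13 of the 15 genes. CCL2 and MIR146A were not matched. GGANTTTCC, a string of the κB type, was searched on both strands, together with TGANTCA, a string of the AP-1 type. The strings do not overlap each other, and the first was written with the known κB sites of promoters such as those of CXCL8 and ICAM1 in mind, so the matches in such genes are not independent of its choice. The κB string was present in 6 of the 13 windows (46.2%), in 11 of 46 windows of the genes at least 2-fold higher (23.9%), in 1.77% of 6850 windows of all genes in the comparison and in 1.64% of 27305 windows in all. The AP-1 string was present in 6 of the 13 (46.2%), 9 of the 46 (19.6%), 4.23% and 7.76%. In all, 10 of the 13 windows held at least 1 of the strings, and TNFRSF9 and CXCL8 held both. CCL20, IL1B and TRIM36 held neither, which says only that these letters are not in these windows. Of 19 matched windows of the genes at least 1.5-fold lower, 0 held the κB string and 1 the AP-1 string. A match is a description of the letters and not of binding.

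The windows of the 6 genes with the κB string are shown, upstream of the start only, with the matched letters in capitals.
NFKBIZ (chr3:101827740-101827816, plus strand): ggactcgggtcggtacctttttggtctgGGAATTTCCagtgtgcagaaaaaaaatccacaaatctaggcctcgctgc
CXCL2 (chr4:74099224-74099312, minus strand): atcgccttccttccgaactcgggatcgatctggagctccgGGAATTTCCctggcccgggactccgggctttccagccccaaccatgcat
CXCL1 (chr4:73869275-73869363, plus strand): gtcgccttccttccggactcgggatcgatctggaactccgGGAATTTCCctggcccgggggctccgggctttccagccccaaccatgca
ICAM1 (chr19:10270894-10270982, plus strand): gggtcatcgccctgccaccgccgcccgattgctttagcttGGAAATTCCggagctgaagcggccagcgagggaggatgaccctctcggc
TNFRSF9 (chr1:7940864-7940952, minus strand): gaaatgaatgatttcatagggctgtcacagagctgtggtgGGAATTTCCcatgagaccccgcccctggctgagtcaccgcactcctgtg
CXCL8 (chr4:73740438-73740526, plus strand): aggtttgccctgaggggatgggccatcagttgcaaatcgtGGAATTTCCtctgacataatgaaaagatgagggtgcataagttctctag

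In NFKBIZ, CXCL2, CXCL1, TNFRSF9 and CXCL8 the matched letters read the same on the gene's strand, and those of ICAM1 are their reverse complement. The match began 77 bases before the start in CXCL2 (position -77), at -78 in CXCL1, at -73 in TNFRSF9, at -91 in CXCL8, at -186 in ICAM1 and at -222 in NFKBIZ. Over the full windows, CXCL1 and CXCL2 were identical at 222 of 308 aligned positions (72.1%), and CXCL1 and CXCL8 at 42.6%. The matches of CXCL1 and CXCL2 are therefore not independent of each other. NFKBIA, 2.70-fold higher, was the only gene among the 54 with the κB string at 2 places, at -242 and -81.
NFKBIA (chr14:35404782-35404999, minus strand): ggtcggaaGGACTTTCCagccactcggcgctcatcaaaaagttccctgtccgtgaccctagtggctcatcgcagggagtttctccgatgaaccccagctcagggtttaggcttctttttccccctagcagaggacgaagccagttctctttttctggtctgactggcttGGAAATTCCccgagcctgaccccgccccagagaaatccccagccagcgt

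TNFAIP6, EBI3, IL23A and SLC34A3 held the AP-1 string and not the κB string. The windows of the first 3 are shown, again with the match in capitals.
TNFAIP6 (chr2:151357423-151357509, plus strand): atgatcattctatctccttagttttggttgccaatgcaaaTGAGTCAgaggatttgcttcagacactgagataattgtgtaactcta
EBI3 (chr19:4229365-4229451, plus strand): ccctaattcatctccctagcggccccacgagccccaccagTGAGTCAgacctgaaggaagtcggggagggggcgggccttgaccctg
IL23A (chr12:56338767-56338853, plus strand): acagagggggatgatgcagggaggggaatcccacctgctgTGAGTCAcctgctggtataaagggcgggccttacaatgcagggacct

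**Figure D3:**
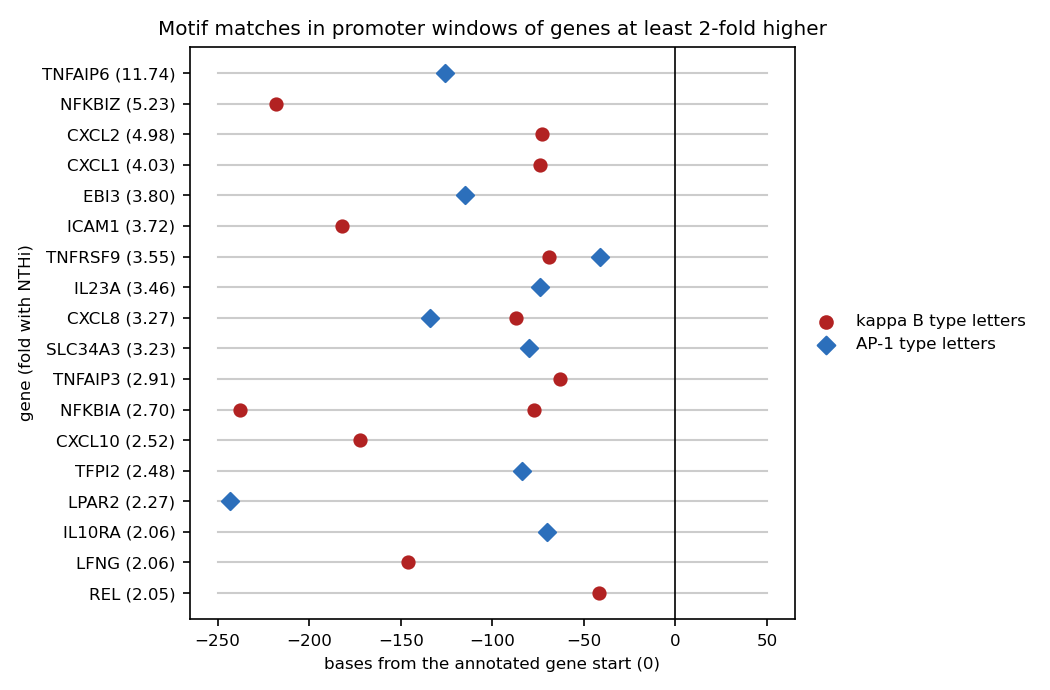
Position of each match to the κB type string (red circles) and the AP-1 type string (blue diamonds), in bases from the annotated gene start, for the 18 genes of the 54 whose window of 250 bases before to 50 after the start held a match, ordered by fold. The matches lie between -246 and -38, and NFKBIA has the κB type string at 2 places.

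CXC chemokines had the highest median ratio of the 34 gene lists examined. Here and below, list counts are to be read beside the shares over all 8074 genes. These were 0.669% at least 2-fold higher, 2.5% at least 1.5-fold higher and 0.334% at least 1.5-fold lower. Of 11 CXC chemokine genes, 5 were among the 8074, 4 of them were at least 2-fold higher, and their median log2 ratio was 1.71, against 0.10 over all genes. Of these 5, CXCL1, CXCL2 and CXCL6 reached the floor only in Siglec-14,NTHi[+] and so had to be higher there, which raises the count and the median. The same holds for CCL24 and TNFSF15 in the cytokine lists below, for TNFRSF9, FAS and TNFRSF12A among TNF receptors, and for MIR146A, MAFF, PIM1, PIM2 and TNFAIP6 in theirs. It also holds for ITGA5 among adhesion molecules, CFP in complement, CD74 in antigen presentation, and IRF7 and IRF9 among interferon-stimulated genes. CXCL10, which attracts T cells through CXCR3, had 807 and 2035, 2.52-fold, and CXCL6, a neutrophil chemokine, 95.2 and 150, 1.58-fold. Of 14 CC chemokine genes, 6 were among the 8074, 2 of them were at least 2-fold higher, and the median was 0.59. CCL4, a chemokine for monocytes and T cells, had 4355 and 6775, 1.56-fold, and CCL24, CCL22 and CCL5 lay between 1.23-fold and 1.46-fold. CCL4 has near-identical gene copies, so its signal may hold more than 1 gene. Of 7 chemokine receptors 0 were at least 1.5-fold higher or lower, and their median of 0.00 lay under that of all genes and ran from -0.13 to 0.02 over the scalings. CCR2, the receptor of CCL2, was the lowest of them at 0.678-fold (578 and 392).

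Among 8 other cytokine genes, EBI3 and IL23A were at least 2-fold higher. LTB, lymphotoxin β, had 971 and 1894, 1.95-fold, TNFSF15, the cytokine TL1A, 98.4 and 189, 1.92-fold, and TNFSF9, the ligand of CD137, 510 and 799, 1.57-fold. TNF did not reach the floor, with 21.5 and 57.9, and IL6, at 15.4 and 13.3, and IL27, the partner of EBI3 in IL-27, at 12.96 and 1.78, were under the median of all signals. In the IL-1 family and inflammasome list, IL1B was the only gene of 10 to be at least 1.5-fold higher. IL1RN, the antagonist of the IL-1 receptor, was 1.30-fold higher, NLRP3, an inflammasome sensor, 1.14-fold, and IL18, a cytokine cut by caspase-1, had 0.857 times its resting signal. In the TNF receptor superfamily, CD40, the costimulatory receptor of antigen-presenting cells, had 209 and 444, 2.13-fold, with 2.40-fold and 2.14-fold on its other probe sets at the floor, and FAS, a death receptor, 76.1 and 136, 1.79-fold. TNFRSF1A, the main TNF receptor, had a ratio of 0.99.

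Genes of the NF-κB system were higher for some members and level for others. Of 11 genes for subunits, IκB proteins and IKK kinases, 6 were at least 1.5-fold higher and 0 lower, with a median log2 ratio of 0.63. Among subunits, REL had 254 and 520, 2.05-fold, RELB 143 and 253, 1.77-fold, and NFKB1, the precursor of p50, 538 and 880, 1.63-fold. RELA, the p65 subunit, had 270 and 272, 1.01-fold, and its log2 ratio ran from -0.12 to 0.03 over the scalings. Among inhibitors, NFKBIA, which encodes IκBα, was 2.70-fold higher (1259 and 3393) and NFKBIE 1.55-fold (415 and 644), after NFKBIZ at 5.23-fold. IKBKE, an inducible IKK-related kinase, was 1.49-fold higher. The kinase subunits IKBKB, CHUK and IKBKG lay between 1.04-fold and 1.10-fold. Of 9 genes that limit NF-κB signalling, 2 were at least 2-fold higher, MIR146A and TNFAIP3, which encodes the ubiquitin-editing enzyme A20 (392 and 1142, 2.91-fold, and 2.16-fold on a second probe set). TNIP1, which binds A20, had 537 and 978, 1.82-fold, and CYLD, a deubiquitinase, 178 and 265, 1.49-fold.

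The receptors and adaptors upstream differed less. Of 10 measured genes of the Toll-like and NOD receptor pathway, 3 were at least 1.5-fold higher. IRAK2, a kinase-like adaptor of the pathway, had 181 and 401, 2.21-fold, NOD2, a sensor of bacterial peptidoglycan, 113 and 196, 1.73-fold, and TLR2, which binds lipoproteins, 133.5 and 210, 1.57-fold. MYD88, IRAK1 and TRAF6 lay between 0.970-fold and 1.03-fold, and the list median of 0.12 was close to that of all genes and turned negative, to -0.01, with arrays scaled to the same sum. TLR4, which reads lipooligosaccharide, stayed under the floor with 65.4 and 54.9.

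Genes of cell survival and early transcription had a few members apart from the rest. BCL2A1, an NF-κB target that blocks apoptosis, was the only gene of 12 in its list to be at least 1.5-fold higher, with 196 and 519, 2.65-fold. CFLAR, an inhibitor of caspase-8, had 1.49-fold. Among 9 AP-1 and ATF genes, MAFF, a small Maf factor, had 64.5 and 147, 2.27-fold, although its dimmer probe set gave 1.08-fold (43.6 and 47.1), and BATF was 1.59-fold higher. JUN had 1.27-fold and ATF3 1.06-fold. IER3 had 861 and 2029, 2.36-fold, and led 10 early response genes, followed by IER5 (711 and 1138, 1.60-fold), while EGR1, a factor of the first hour of many responses, had 1.08-fold. Of 8 phosphatases and Sprouty-type inhibitors of MAP kinases 0 reached 1.5-fold, the highest being DUSP1 at 1.49-fold. Of 9 SOCS and JAK-STAT genes, PIM2 (84.3 and 244, 2.90-fold) and PIM1 (65.7 and 109, 1.66-fold), serine kinases that favor survival, were higher. CISH and SOCS2, feedback inhibitors of cytokine receptors, had ratios of 0.845 and 0.94. Another probe set of CISH went the other way, with 76.3 and 130, 1.70-fold higher, and another of SOCS2 had a ratio of 0.826.

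Adhesion, matrix and clotting lists each held a few higher genes. ICAM1 and VCAM1, a ligand of α4 integrins (110 and 257, 2.33-fold), were the genes of 13 that reached 1.5-fold, and ITGB2, the β chain of the leukocyte integrins, followed with 1.45-fold. In the matrix list, MMP9, a gelatinase, had 1282 and 2304, 1.80-fold. VCAN, the hyaluronan-binding proteoglycan versican, had 0.69 times its resting signal, but its other probe set at the floor was level, with 131.0 and 131.5. Of 6 genes of coagulation and fibrinolysis, 4 were at least 1.5-fold higher: TFPI2, a protease inhibitor (272 and 675, 2.48-fold, and 2.74-fold on a second probe set), PLAUR, the urokinase receptor (1001 and 1809, 1.81-fold), PLAU, urokinase itself (307 and 484, 1.58-fold), and F3, tissue factor (362 and 564, 1.56-fold). F13A1, a clot-stabilizing transglutaminase, had a ratio of 0.752.

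Metabolic and effector lists had higher members beside level ones. Over all 8074 genes, 2.5% were at least 1.5-fold higher. At least 1.5-fold higher were 5 of 10 genes of immune metabolism, 1 of 10 of metallothioneins and zinc transport, 2 of 7 of complement, 1 of 6 of prostaglandins and leukotrienes and 1 of 14 of antigen presentation. The lowest ratios were 0.892 for ODC1, which makes polyamines, 0.952 for CD46, a complement regulator, 0.855 for PLA2G4A, a phospholipase, and 0.901 for CD86, a costimulatory ligand. Another probe set of CD86 was higher with NTHi, with 121 and 154, 1.27-fold. The 6 metallothionein genes, which bind zinc and copper, lay between 1.40-fold and 1.72-fold with resting signals of 1029 to 4041, and MT2A had the highest ratio, with 4041 and 6964. These genes are near-copies of each other, so a probe set may read more than 1 of them. The zinc transporters SLC39A8 and SLC39A14 had 1.02-fold and 0.99-fold. NCF1, a subunit of the NADPH oxidase with closely related pseudogenes, had 456 and 1103, 2.42-fold. SOD2, the mitochondrial superoxide dismutase, had 115 and 244, 2.11-fold, KYNU, a kynurenine pathway enzyme, 1.81-fold (849 and 1535), NAMPT, an enzyme of NAD synthesis, 1.80-fold (423 and 762), and SAT1, a polyamine acetyltransferase, 1.57-fold (1869 and 2938). C3, the central complement component, had 1090 and 1823, 1.67-fold, and C3AR1, the receptor of its fragment C3a, 1062 and 1727, 1.63-fold. PTGER4, a prostaglandin E2 receptor, had 429 and 809, 1.89-fold, while PTGS2, which makes its ligand's precursor, lay just under the floor with a ratio of 2.41. CD83, a marker of activated antigen-presenting cells, was 1.74-fold higher (720 and 1251).

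The other lists lay close to the median of all genes. Their counts past 1.5-fold are to be read beside 2.5% higher and 0.334% lower over all 8074 genes. Of 14 interferon-stimulated genes, GBP2, a guanylate-binding protein, was the only member at least 1.5-fold higher (121 and 187, 1.54-fold), and ISG15 had 0.942-fold. The list median was 0.15. DDIT3, a stress factor, led 13 heat shock and unfolded protein response genes with 1.52-fold, and VEGFA, an angiogenic factor, 12 glycolysis and hypoxia genes with 1.51-fold. A dimmer probe set of VEGFA gave 1.05-fold. Among 24 genes of the cell cycle and DNA replication, the ratios ran from 0.927 to 1.26 and the median was 0.14. Respiratory chain subunits (17 genes, median 0.19), lysosomal genes (15 genes, 0.15), primary granule proteins (9 genes, 0.21) and myeloid transcription factors (12 genes, 0.07, and -0.07 with arrays scaled to the same sum) held 0 genes past 1.5-fold in either direction. GAPDH and ACTB, often used as reference genes, had ratios of 1.11 and 1.15, whose log2 values changed sign between the scalings.

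**Figure D4:**
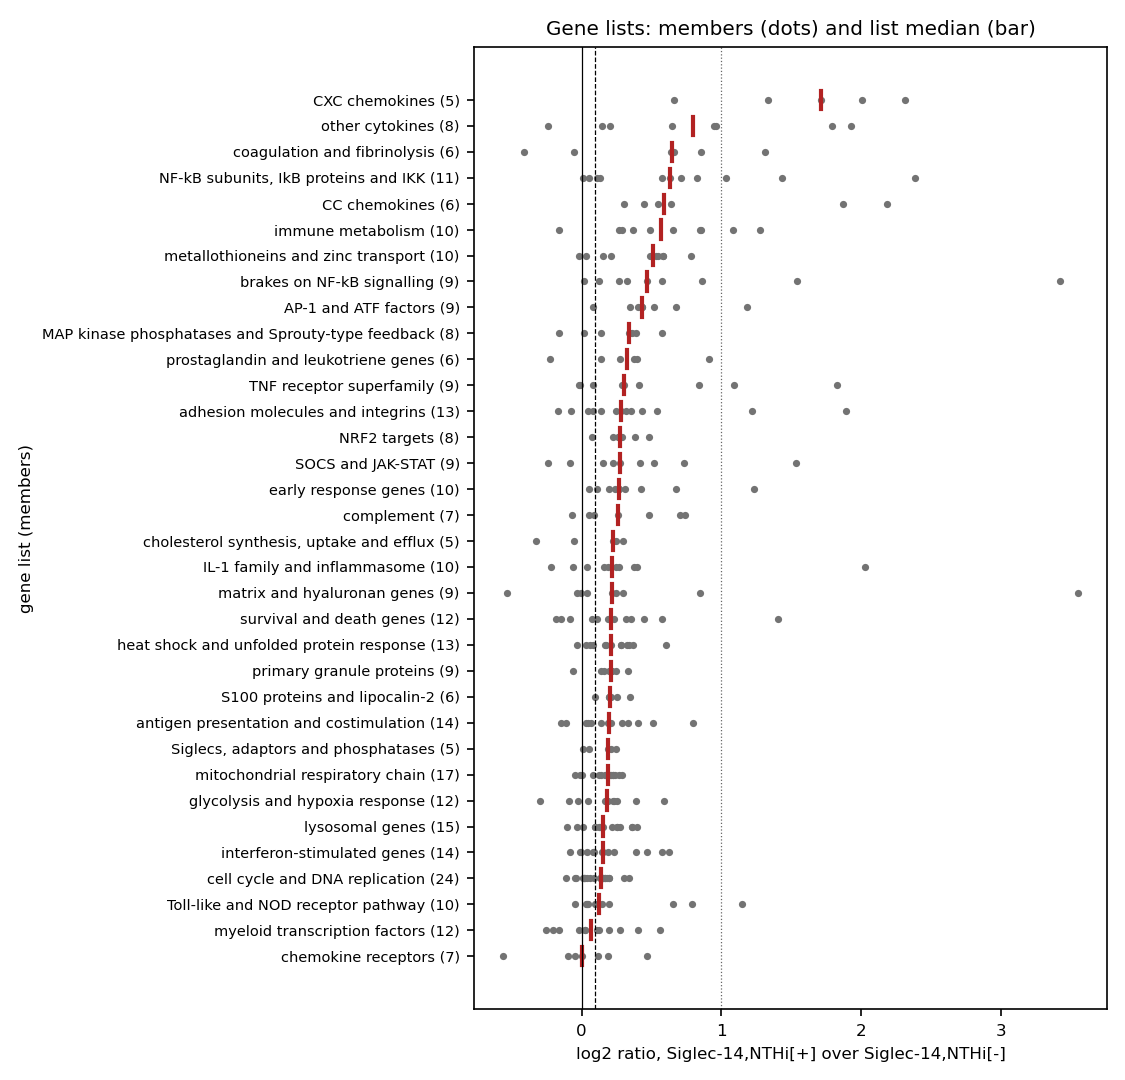
Each dot is a gene of 1 of 34 lists, placed by its log2 ratio of Siglec-14,NTHi[+] to Siglec-14,NTHi[-] on the x axis, with the list median as a red bar and the number of genes in parentheses. The dashed line marks the median of all 8074 genes, 0.10, and the dotted line 2-fold. The median of CXC chemokines, 1.71, lies past 2-fold and the other medians lie between 0.00 and 0.80.

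Of the 54 genes at least 2-fold higher, 26 belong to no list, with folds between 2.01 and 3.23. IL3RA, a chain of the IL-3 receptor, had 68.6 and 183, 2.66-fold, and IL10RA, a chain of the IL-10 receptor, 172 and 355, 2.06-fold. PDE4B, a phosphodiesterase that degrades cyclic AMP, had 58.8 and 160, 2.71-fold, and RGS16, which ends signals of G protein-coupled receptors, 1504 and 3085, 2.05-fold. GPR84, a receptor for medium-chain fatty acids, had 238 and 494, 2.08-fold. WNT5A, a Wnt ligand, had 260 and 648, 2.49-fold, and 3.68-fold on its other probe set. SLC2A6, a sugar transporter of the GLUT family, was 2.75-fold higher (47.5 and 130). IL4I1, a secreted amino acid oxidase, had 346 and 742, 2.14-fold. RRAD, a small GTPase, had 56.7 and 136, 2.41-fold, and 4.06-fold on its dimmer probe set. ZC3H12C and ZC3H12D, relatives of the RNase Regnase-1, were 2.01-fold and 2.26-fold higher. COXFA4L3 (276 and 821, 2.98-fold), G0S2, an inhibitor of triglyceride lipase (45.5 and 111, 2.44-fold), and SERPINA1, α1-antitrypsin (84.6 and 177, 2.09-fold), which was listed as a hepatocyte marker, were also among the 54. ALB, APOA1 and TTR, the other hepatocyte markers, were at 17.6 or less on both arrays.

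Fewer genes were lower with NTHi, and none of the 8074 by 3-fold or more. ENTR1, an endosomal protein, had the smallest ratio, with 390 in Siglec-14,NTHi[-] and 169 in Siglec-14,NTHi[+], 2.30-fold lower. MSH3, a mismatch repair protein, had 328 and 175, but its other probe set at the floor had 192 and 287, 1.49-fold higher. FOXK1, a forkhead factor, had 382 and 222, ATP8B1, a phospholipid flippase, 225 and 126, ZNF605 181 and 102, SKIDA1 137 and 79.7, and MNT, a repressor of the Myc network, 277 and 171. SYMPK, a scaffold of mRNA 3' processing, had 154 and 88.5, and 1.20-fold higher on another probe set. The 15 smallest ratios also took in TXLNGY, DCLRE1C, CDIN1, DHRS1, FGD1, GUSBP14 and DYNC2LI1, each with 0.538 to 0.615 times the resting signal. HP, haptoglobin, had 623 and 398, and GPR183, a chemotactic receptor for oxysterols, 482 and 313, among the 27 genes at least 1.5-fold lower. None of the 27 belongs to a gene list used here.

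Other probe sets of the same gene read the same RNA on the same arrays, and the higher and lower genes differed in how often these went the same way. For the 54 genes at least 2-fold higher, 15 had another probe set at the floor, 21 probe sets in all, and 21 of the 21 were higher with NTHi, 15 at least 2-fold. Part of this was set by the floor. The other probe sets of TNFAIP6, RRAD and NFKBIZ, with resting signals of 28.9, 27.9 and 72.4, were among those that reached it only with NTHi and so had to be higher. Probe sets under the floor were left out and went both ways. Those of IL23A had 3.38 and 23.6 on 1 and 17.6 and 0.362 on another. For the 15 genes at least 3-fold higher, 5 had another, 6 probe sets in all, and 5 of these were at least 3-fold higher. For the 202 genes at least 1.5-fold higher, the threshold used for the lower genes, 48 had another, 67 probe sets in all. Of these 67, 64 were higher with NTHi, 41 at least 1.5-fold, with the same limit from the floor. For the 27 genes at least 1.5-fold lower, 7 had another, 8 probe sets in all, and 4 of the 8 were lower, 0 of them 1.5-fold. These directions are to be read beside all 8074 genes, of which 5838 had a higher signal with NTHi and 2236 a lower one. Probe sets whose name marks possible matches to other transcripts made up 5 of the 27 (18.5%), 4 of the 54 (7.41%) and 6.56% of all 8074. Their part in the lower ratios was not tested. Over all genes with another probe set at the floor, the log2 ratios of the chosen and the other probe set differed by a median of 0.14.

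Siglec-5/THP-1 cells, set beside these values, had higher signals with NTHi for nearly all genes that stood out in Siglec-14/THP-1. With signals under the median of all signals raised to it, the 15 genes at least 3-fold higher were higher in Siglec-5/THP-1 as well, 11 of them at least 3-fold. Of the 54 genes, 2, TFPI2 and SERPINA1, were under that median on both Siglec-5/THP-1 arrays. Of the other 52, 29 were at least 2-fold higher in Siglec-5/THP-1, 51 were higher and 1, IL3RA, was lower. IL3RA had 81.1 and 67.7 there. By the same rule, Siglec-5/THP-1 had 38 genes at least 2-fold higher among its own 7937 genes (0.479%) and 8 lower (0.101%). At least 3-fold, 23 were higher (0.29%) and 1 lower (0.0126%), and at least 1.5-fold, 97 were higher (1.22%) and 94 lower (1.18%). Of the genes at least 2-fold higher, 21 were in both sets, 38.9% of the Siglec-14/THP-1 set and 55.3% of the Siglec-5/THP-1 set. A gene counted here only if it also reached the 75th percentile in Siglec-5/THP-1. The 29 genes above did not need to, so the 21 leave out genes that were higher but dim in that subline. Across 8045 genes with all 4 signals at or above the median, the log2 ratios of the sublines had a Pearson correlation of 0.51, a description across genes, which are not independent. The arrays of each subline differ in their sums, and 75.5% of the 8074 genes had a lower signal with NTHi in Siglec-5/THP-1.

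The size of the ratio differed between the sublines in both directions, and since the genes were chosen on the Siglec-14/THP-1 ratio, no count of the larger ones is given. CXCL2 was 4.98-fold higher in Siglec-14/THP-1 and 2.16-fold in Siglec-5/THP-1 (17.9 and 38.6), IL23A 3.46-fold and 1.65-fold (105 and 172), and SLC34A3 3.23-fold and 1.39-fold (147 and 205). MAFF was 2.27-fold and 1.07-fold higher, and IRAK2 2.21-fold and 1.40-fold. On the other side, CXCL10 was 2.52-fold higher in Siglec-14/THP-1 and went from 63.8 to 3220 in Siglec-5/THP-1, IL4I1 was 2.14-fold and 8.01-fold higher, VCAM1 2.33-fold and 6.18-fold, and TNFAIP3 2.91-fold and 6.45-fold. These ratios were not corrected for the array shifts, with a median log2 ratio over the 8074 genes of 0.10 in Siglec-14/THP-1 and -0.11 in Siglec-5/THP-1. With 1 array per condition, a difference between the sublines in their response has no test.

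Before NTHi, 33 of the 54 genes had at least 2 times the signal in Siglec-14/THP-1 that they had in Siglec-5/THP-1, against 2.71% of the 8074 genes, and with NTHi 30 of the 54 did, against 3.48%. The 54 were chosen on Siglec-14/THP-1 signals, which favors the latter count. IER3 had 861 in Siglec-14,NTHi[-] and 30.8 in Siglec-5,NTHi[-], RGS16 1504 and 89.6, and COXFA4L3 276 and 16.2. The reverse order was rarer. NFKBIZ had 150 in Siglec-14,NTHi[-] and 199 in Siglec-5,NTHi[-], and SLC34A3 had 71.8 and 147. Among the 27 genes at least 1.5-fold lower with NTHi in Siglec-14/THP-1, 20 were lower in Siglec-5/THP-1 too, to be read beside the 75.5% of all genes that were lower there. Of the 27, 10 were at least 1.5-fold lower in Siglec-5/THP-1, beside 1.18% of the 7937 genes of that subline.

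**Figure D5:**
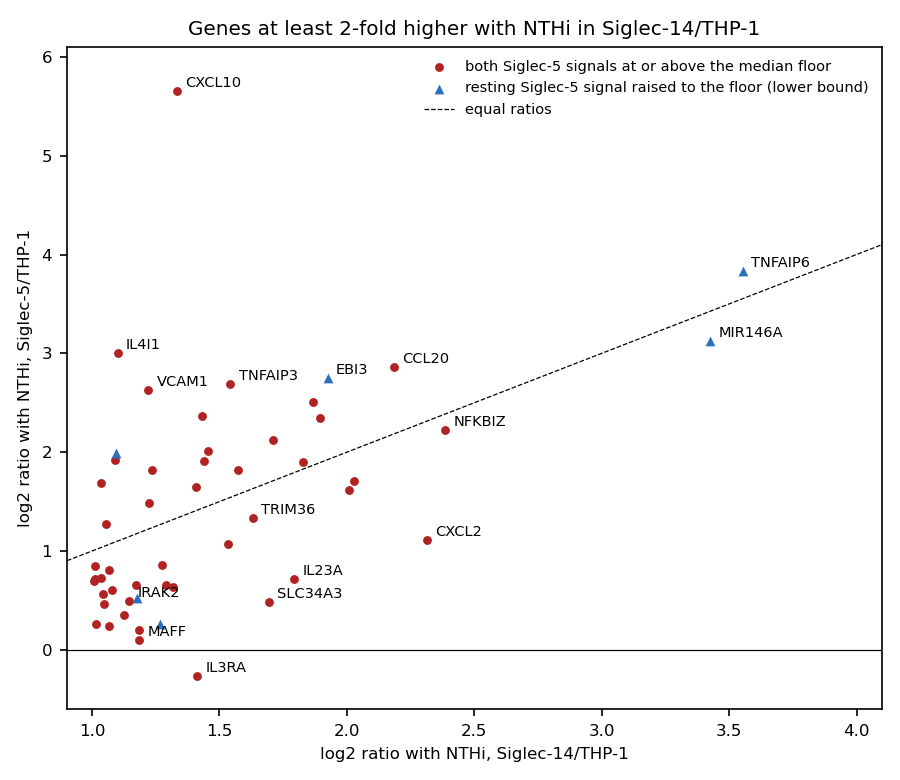
Log2 ratio with NTHi in Siglec-14/THP-1 (x axis) and in Siglec-5/THP-1 (y axis) for 52 of the 54 genes, with the dashed line marking equal ratios; for blue triangles the resting Siglec-5/THP-1 signal was raised to the median of all signals, so the y value is a lower bound. IL3RA is the only point under 0 on the y axis, and CXCL10 lies farthest above the dashed line.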

How the data were processed

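Gene expression was measured in 4 samples with Affymetrix U133 Plus 2.0 arrays, 1 array per condition, mapped to conditions by the sample titles. The deposited values are linear signals of 54675 probe sets, 62 of them controls. The authors quantified and standardized them with GeneChip Operating Software on the cumulative signal of all probes (software version not given in the sources used here), although the sums of the deposited columns differ. Signals were used as deposited. Probe sets were named with the platform annotation: 41097 list 1 gene, 1801 several and 11777 none, and 0 symbols needed updating against RefSeq. The floor was the 75th percentile of all signals on the 4 arrays, 105, and folds against signals under their median, 16.02, were computed against that median. With 1 array per condition no test was made, and the number of arrays limits the precision. The script that counts genes past a fold was checked on simulated data with known folds, which tests no count reported here. The text names the 30 largest and 15 smallest ratios, list members past 1.5-fold and 11 fixed genes, and other genes named, among them other genes at least 2-fold higher or 1.5-fold lower, were chosen after their values were seen. The genes, lists and strings were chosen with earlier results of these data known. Some genes are not reported here. Alternatives were 4 scalings, a pseudocount of 16, other floors and other probe sets of a gene. Python 3.11.15, numpy 2.4.6, pandas 2.3.3 and matplotlib 3.10.9 were used.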

Additional observations from a re-analysis of the deposited data

Results flagged for a closer look

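A few genes moved in opposite directions with NTHi in the sublines, by at least 1.5-fold in Siglec-14/THP-1 and at least 1.2-fold the other way in Siglec-5/THP-1, with all 4 signals above the median. The differences were not tested. Folds were not corrected for the array shifts, with a median log2 ratio over the 8074 genes of 0.10 in Siglec-14/THP-1 and -0.11 in Siglec-5/THP-1. Most of the genes below went in the direction of that difference. SLC35D4 had a fold of 1.94 in Siglec-14/THP-1 and 0.796 in Siglec-5/THP-1, INPP5E 1.61 and 0.794, TTLL4 1.6 and 0.821, TMEFF2 1.58 and 0.735, VAT1L 1.56 and 0.758, AK4 1.51 and 0.832, and HOXB4 1.51 and 0.749. SMARCAL1 had 0.64 and 1.20, and PTPN14 0.622 and 1.41. Their signals without NTHi lay between 72.4 and 308 in both sublines, where ratios spread widely.

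Among 814 probe sets with no gene in the annotation that reached the floor in Siglec-14/THP-1, 4 were at least 2-fold higher with NTHi and 1 was at least 2-fold lower. Such probe sets enter no comparison above.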

How the results depend on the processing

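The counts depended most on the floor. With the floor at the median of all signals, 220 genes were at least 3-fold higher, 255 at least 3-fold lower, 463 at least 2-fold higher and 448 at least 2-fold lower, over 13210 genes. The lower signal had no bound in these counts, so ratios against very dim signals enter them. With the floor at the 90th percentile, 6 were at least 3-fold and 20 at least 2-fold higher and 0 at least 2-fold lower. With the floor required on both arrays, the higher counts were 8 and 35. The single gene at least 2-fold lower became 4 with arrays scaled to the same sum, 2 with the trimmed mean, 2 after quantile normalization, and 8 with the probe set of the largest absolute ratio. The other 3-fold and 2-fold counts stayed within 1.5 times of those reported, those at 1.5-fold ran from 59 to 1043 higher and from 2 to 848 lower, and the median log2 ratio of all genes ran from -0.04 to 0.12. Over the scalings, 3 of 34 list medians changed sign. The 82 genes named for the size of their ratio were chosen far from 1, and none of them changed sign. Folds near 1.5 did depend on the scaling. With arrays scaled to the same sum, genes that fell under 1.5-fold included NFKB1 (log2 ratio 0.57), PLAU (0.52), F3 (0.51), GBP2 (0.49) and VEGFA (0.46). The counts of list members at least 1.5-fold higher therefore depend on the scaling too. GAPDH, ACTB and RELA, named whatever their ratio, changed sign. Of the values of the 82 genes under other settings, 18 moved by more than the SD over all genes, 0.23, and 728 by less. For the lists these numbers were 7 and 333. No paired analysis was possible because each condition has 1 array and no test was made.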

Other observations

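CXCL8, CXCL1 and CXCL2, which were at least 3-fold higher with NTHi, lie near each other on chromosome 4 in the RefSeq gene order, with 2 protein-coding genes between CXCL8 and CXCL1 and 4 between CXCL1 and CXCL2.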
